A study of Mus musculus with 32 samples.

Results

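PparDA intestinal stem cells were compared with PparA intestinal stem cells, both from mice on a high-fat diet. The comparison uses 8 of the 32 libraries in the series, chosen by their group names, with 4 PparDA libraries and 4 PparA libraries. PparDA mice are labelled Ppard-fl/fl together with Ppara-null, and PparA mice are labelled Ppara-null, so both carry the null Ppara allele and the comparison concerns the floxed Ppard allele on that background. All mice are C57BL6. Their cells were sorted as CD326+ cells with high GFP, and the polyadenylated RNA of each sorted sample was read from the 3′ end. The other 24 libraries are PparDA and PparA cells from the control diet, PparD cells (Ppard-fl/fl) from both diets and wild-type cells from both diets, with 4 libraries in each group. The labels do not state the Cre driver, whether the floxed allele had recombined in the sorted cells, the time on diet, the sex of the mice, or whether each library is a separate animal. The p-values therefore measure the spread between these libraries.

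Peroxisome proliferator-activated receptors are nuclear receptors that bind fatty acids and related ligands and switch on genes for fatty acid uptake, transport and oxidation. PPAR-alpha is best known as the fasting and fat-oxidation receptor of liver and gut. PPAR-delta is expressed in many tissues, including the intestinal crypt, and shares many target genes with PPAR-alpha, so a cell without PPAR-alpha may still use PPAR-delta on the same targets. Intestinal stem cells sit at the crypt base between Paneth cells, carry the surface receptor Lgr5, and renew the absorptive enterocytes and the secretory cells of the epithelium.

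Each of the 8 libraries held 636955 to 683711 estimated counts, and 11736 to 12192 genes had at least 1 count. Neither receptor could be used as a check of the genotype at this depth, because few reads came from either gene. Ppara had 0 to 3 counts in PparDA libraries and 1 to 3 in PparA libraries, and Ppard had 3 to 6 counts in PparDA libraries and 0 to 7 in PparA libraries. A 3′ tag need not lie in a deleted part of a gene. Library names run from 1 to 32 in 4 runs of 8, each holding 1 library of every group. Tests below contain the run as a term unless stated otherwise. Runs 1 and 3 had Xist at 466.4 to 931.3 counts per 1e+06 (CPM), and runs 2 and 4 had it at 0 to 9.718 CPM, so the runs also differ in sex. PparDA libraries are 8, 16, 24 and 32 and PparA libraries are 6, 14, 22 and 30, given in this run order throughout.

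The PparA libraries did not stand together. Over the 52 genes for which all 8 PparDA libraries of both diets lay outside the range of the 16 wild-type and PparD libraries, PparA library 6 lay inside the wild-type and PparD range for 35 genes and PparA library 22 for 27. PparA library 14 did so for 0 of these genes and PparA library 30 for 1. Itch, an E3 ubiquitin ligase, had 687.5, 625, 779.7 and 650.8 CPM in PparDA libraries, against 78.54, 764.7, 67.47 and 879.5 CPM in PparA libraries. PparA libraries 6 and 22 thus read as the wild-type and PparD libraries did for Itch, which spanned 50.9 to 103 CPM there. Cyb5r3, a cytochrome b5 reductase whose gene lies near Ppara on chromosome 15, had 293.3, 225, 294.5 and 355.3 CPM in PparDA libraries, against 238.5, 268.9, 297.2 and 335.3 CPM in PparA libraries and 62.88 to 99.93 CPM in wild-type and PparD libraries. For Cyb5r3 all 4 PparA libraries stood with the PparDA libraries. These genes were chosen after their values were seen. Because libraries 6 and 22 are the PparA libraries of runs 1 and 3, what sets them apart cannot be told apart from sex or run within the PparA group. Whether these libraries also differ in genotype or strain background was not tested, so a difference between the groups need not come from the floxed Ppard allele alone. Counts of calls are given below with and without them.

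Transcripts for cytosolic ribosomal proteins made up 40 of the 146 genes that differed between PparDA and PparA cells, 36 of them higher in PparDA. Of 5872 genes tested, 146 were called at an adjusted p under 0.05 (2.49%), with 100 higher in PparDA (1.7%) and 46 lower (0.783%), by edgeR's quasi-likelihood test with Benjamini-Hochberg adjustment. The median log2 fold change over all tested genes was -0.01 after the libraries were scaled by TMM. This scaling itself centres the table, so a shift shared by most genes would not be seen. The groups did not overlap for 88 of the 100 higher genes (214 of all tested genes, 3.64%, had PparDA wholly above PparA) and for 31 of the 46 lower genes (180 of all, 3.07%, wholly below). The called genes were well expressed, with a median of 701 CPM for the higher and 121 CPM for the lower genes, against 31.2 CPM for all tested. In 142 of the 146 genes the PparDA library was on the same side of the PparA library in all 4 runs, and the other 4 (Rpl28-ps1, Gm4294, Rpl31-ps8 and Rps12l1) had a difference in 1 run only. The genes were called from these same libraries with the run as a term, so this count is a description and no separate test. Without the run term the same test called 16 genes, 6 higher and 10 lower, all of them among the 146. Without PparA libraries 6 and 22 it called 122 genes, 88 higher and 34 lower, of which 93 were among the 146. Without PparA libraries 14 and 30 it called 54, 25 higher and 29 lower, of which 28 were among the 146. Among single libraries, leaving out PparDA library 8 gave 70 calls, PparDA library 16 gave 93, PparA library 14 gave 65 and PparA library 30 gave 58. The higher genes then numbered 48, 60, 41 and 34, and the lower genes numbered 22 without library 8, 24 without library 14 or 30 and 28 without library 32.

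**Figure D1:**
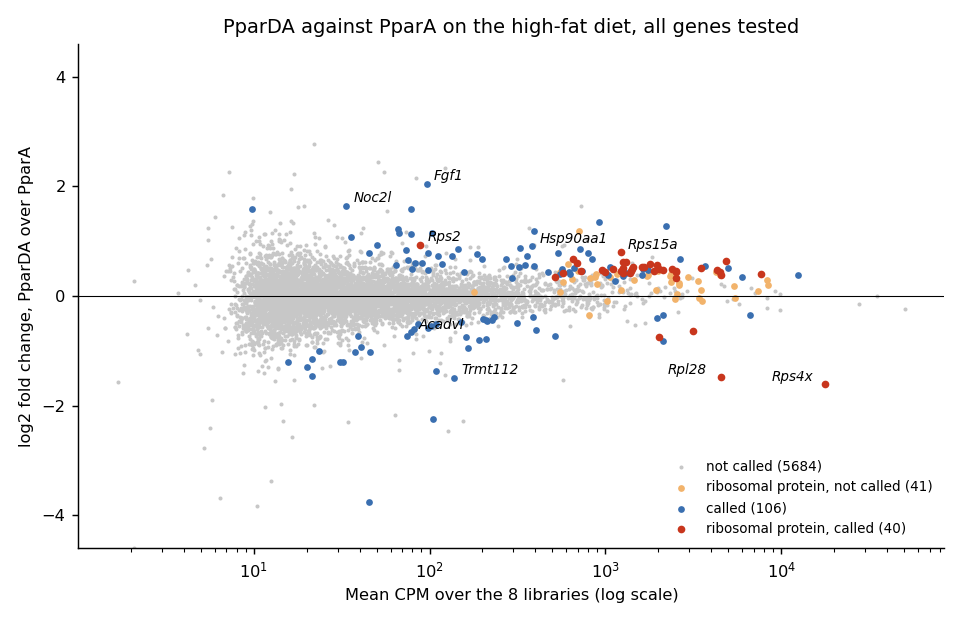
Log2 fold change of PparDA over PparA on the high-fat diet (vertical axis) against mean CPM over the 8 libraries (horizontal log axis), 1 point per tested gene, with called genes and ribosomal protein genes in their own colours and genes beyond the vertical axis, such as Rpl28-ps1 and Rpl31-ps8, not drawn. The 40 called ribosomal protein genes sit at high expression, 36 above 0 and 4 below it, with Rps4x and Rpl28 lowest.

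Genes for cytosolic ribosomal proteins, the protein subunits of the ribosome, were the gene group with the most calls. Of 81 tested members of this list of 82, 36 rose in PparDA cells, 4 fell and 41 did not pass the test, so 49.4% were called against 2.49% of all genes tested. All tested genes had a median of only 31.2 CPM, and small fold changes pass the test more easily at high expression. The share called among genes of like expression was not measured. The log2 fold change was above 0 for 71 of the 81, with a median of 0.40 against -0.01 for all genes. The median log2 ratio of PparDA over PparA within a run was 0.42, 0.49, 0.28 and 0.29 in runs 1 to 4. The summed ribosomal protein signal was 221060, 223460, 203440 and 177400 CPM in PparDA libraries, against 186520, 187620, 209210 and 184550 CPM in PparA libraries. For this sum PparDA was higher in runs 1 and 2 and lower in runs 3 and 4, and the groups overlap. The sum includes Rps4x and Rpl28, described below, which were lower in PparDA in every run. By gene, 75, 75, 66 and 65 of the 81 were higher in PparDA in runs 1 to 4.

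Rps15, a protein of the small subunit, gave the clearest rise that no single library decided. It had 1622, 1883, 1499 and 1654 CPM in PparDA libraries, against 1254, 1270, 1171 and 1045 CPM in PparA libraries. Every PparDA library lay above every PparA library, and the log2 fold change was 0.49 ± 0.08 (SE; 1.40-fold; edgeR adjusted p = 0.0018). Rpl19, of the large subunit, had 2506, 2449, 2294 and 2086 CPM in PparDA libraries, against 1710, 1745, 1529 and 1335 CPM in PparA libraries (log2 fold change 0.57 ± 0.11, edgeR adjusted p = 0.0040). Its call also stood when any of the 8 libraries was left out. Rpl32, of the large subunit, had 6945, 6732, 5521 and 4554 CPM in PparDA libraries, against 4065, 3990, 3817 and 3341 CPM in PparA libraries (0.63 ± 0.13, edgeR adjusted p = 0.0091). Again the groups did not overlap, and the call was lost without PparDA library 8. Rps20, of the small subunit, had 853, 947, 756 and 668 CPM in PparDA libraries, against 468, 552, 538 and 460 CPM in PparA libraries (0.67 ± 0.14, edgeR adjusted p = 0.0073). The highest PparA library stayed below the lowest PparDA library.

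The largest called rises in the list were in Rps2 and Rps15a, both of the small subunit. Rps2 had 154, 100, 118 and 91.9 CPM in PparDA libraries, against 62.5, 79.4, 57.8 and 43.7 CPM in PparA libraries. The groups did not overlap, the log2 fold change was 0.94 ± 0.22 (edgeR adjusted p = 0.014), and leaving out library 8 or library 30 ended the call. Rps15a had 1529, 1859, 1528 and 1299 CPM in PparDA libraries, against 894, 974, 1015 and 664 CPM in PparA libraries. These groups too did not overlap, at a log2 fold change of 0.80 ± 0.21 (edgeR adjusted p = 0.034), and the call was lost when 6 of the 8 libraries were left out in turn, namely 6, 8, 14, 16, 24 and 30. The whole group was similarly dependent on single libraries for its count of calls. The number of ribosomal protein genes called higher was 10 without library 30, 11 without library 14, 13 without library 8, 22 without library 24 and 23 without library 16, and 35 without library 6 or library 22. It was 1 without the run term. It was 34 without libraries 6 and 22 together, with a list median of 0.50 and 71 of 81 genes above 0. Without libraries 14 and 30 it was 0 by edgeR, with a list median of 0.29 and 70 genes above 0.

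**Figure D2:**
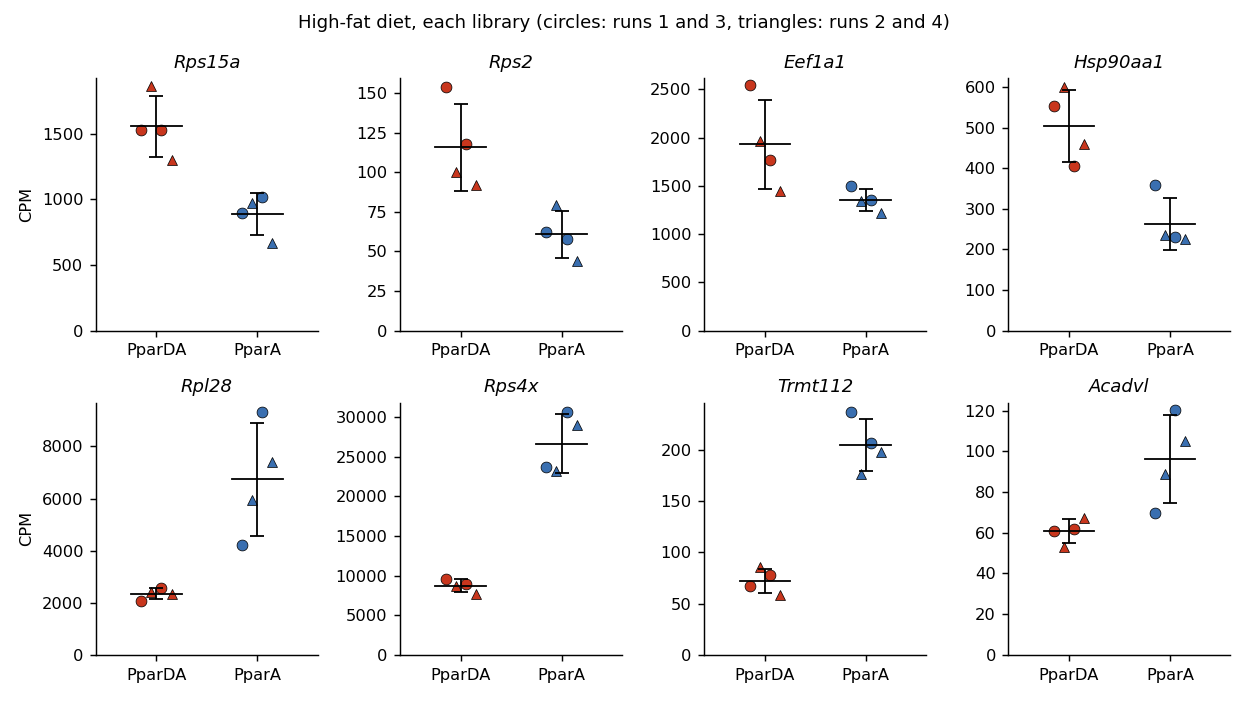
CPM of 8 genes in each PparDA library (red, left) and PparA library (blue, right) on the high-fat diet, with circles for runs 1 and 3, triangles for runs 2 and 4, the group mean as a line and the SD as a bar. The groups overlap only for Eef1a1 among these genes, and Trmt112 runs from 58.2 to 85.9 CPM in PparDA and from 177 to 237 CPM in PparA.

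Ribosomal protein messages are classic carriers of a 5′ terminal oligopyrimidine tract, a run of pyrimidines beginning with C at the transcription start, through which growth signalling controls their translation. Windows of 15 bases on either side of the RefSeq start (GRCm38.p6) are shown for 5 risers of the list, for Rack1 and Eef1a1, and for the 2 ribosomal protein genes that fell most, to show how start sequences differ between members. They are written 5′ to 3′ on the sense strand, with capitals for each run of at least 6 bases that begins with C and holds only C or T. Most of the windows shown hold such a run, and those of Rps15 and Rps4x hold none. The result depends on the annotated start, since Rpl19 and Rpl10a each have a RefSeq start window with a run and another without. Whether the RefSeq start is the start used in these cells was not tested, so a window without a run does not show that the message lacks the tract.
Rps15a, chr7:118116133-118116162, minus strand: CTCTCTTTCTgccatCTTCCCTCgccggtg
Rps15, chr10:80292416-80292445, plus strand: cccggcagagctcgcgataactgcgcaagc
Rpl13a, chr7:45128731-45128760, minus strand: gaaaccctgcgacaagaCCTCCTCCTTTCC
Rpl7a, chr2:26910792-26910821, plus strand: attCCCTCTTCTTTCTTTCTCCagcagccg
Rps2, chr17:24720048-24720077, plus strand: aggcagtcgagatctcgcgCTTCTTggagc
Rack1, chr11:48800345-48800374, plus strand: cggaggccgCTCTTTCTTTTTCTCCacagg
Eef1a1, chr9:78481710-78481739, minus strand: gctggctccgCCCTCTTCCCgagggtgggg
Rpl28, chr7:4792950-4792979, plus strand: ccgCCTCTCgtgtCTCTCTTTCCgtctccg
Rps4x, chrX:102189377-102189406, minus strand: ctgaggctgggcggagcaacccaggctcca
Such a run was found on the sense strand in 52.1% of the start windows of tested ribosomal protein genes (37 of 71 starts, 60 of 81 genes matched) and in 22.5% of all RefSeq start windows. Among ribosomal protein genes it was found in 54.2% of windows of those called higher (13 of 24), in 66.7% of windows of those called lower (2 of 3) and in 50% of windows of those not called (22 of 44). The share was thus near 50% for genes called higher, of which 21 of 36 were matched, and for genes not called. That of genes called lower rests on 3 windows, and the run of pyrimidines is described here as letters only.

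**Figure D3:**
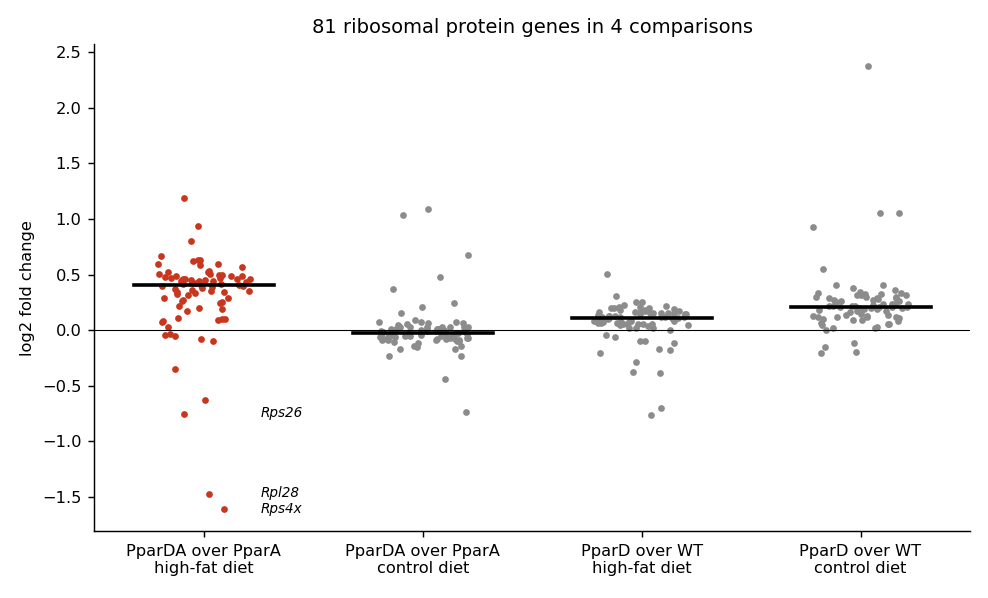
Log2 fold changes of the 81 tested ribosomal protein genes in PparDA over PparA on the high-fat diet (red) and in 3 other comparisons (grey), 1 point per gene with a line at the median. The medians are 0.40, -0.03, 0.11 and 0.21 from left to right, and Rps4x, Rpl28 and Rps26 lie lowest in the high-fat comparison of PparDA with PparA.

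Other genes of translation also rose, although these were picked after their values were seen. Eef1a1, the elongation factor that brings aminoacyl-tRNA to the ribosome, had 2548, 1967, 1764 and 1446 CPM in PparDA libraries, against 1504, 1346, 1349 and 1221 CPM in PparA libraries. The lowest PparDA library overlapped the PparA range, the log2 fold change was 0.50 ± 0.12 (edgeR adjusted p = 0.018), and the call did not stand without library 8, 14 or 30. Rack1, a scaffold protein of the small subunit, had 1099, 1303, 1093 and 1178 CPM in PparDA libraries, against 1009, 899, 814 and 833 CPM in PparA libraries (0.39 ± 0.09, edgeR adjusted p = 0.010). Its groups did not overlap, and library 14 or 30 alone ended the call when left out. Naca, a chaperone of nascent chains, rose by a log2 fold change of 0.37 ± 0.09 (edgeR adjusted p = 0.030), a call that did not stand without library 8, 14, 16 or 30. In the other direction Eif3h, a subunit of initiation factor eIF3, had 163, 120, 107 and 170 CPM in PparDA libraries, against 259, 191, 257 and 256 CPM in PparA libraries. PparDA lay wholly below PparA for Eif3h (-0.80 ± 0.15, edgeR adjusted p = 0.0041).

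Among the 4 ribosomal protein genes that fell, 3 are described here, and they were among the strongest calls of the comparison. Rps4x, a small-subunit protein encoded on the X chromosome, had 9583, 8750, 8946 and 7678 CPM in PparDA libraries, against 23776, 23172, 30673 and 28976 CPM in PparA libraries. The groups were far apart, with PparDA 3.06-fold lower (log2 fold change -1.61 ± 0.16, edgeR adjusted p = 2e-07). Rpl28, of the large subunit, had 2083, 2399, 2573 and 2352 CPM in PparDA libraries, against 4234, 5959, 9311 and 7420 CPM in PparA libraries (-1.47 ± 0.13, edgeR adjusted p = 3.6e-08). PparDA libraries lay close together and PparA libraries spread widely. Rps26, of the small subunit, had 1660, 1706, 1386 and 1260 CPM in PparDA libraries, against 2448, 2417, 2774 and 2421 CPM in PparA libraries (-0.75 ± 0.11, edgeR adjusted p = 1e-04). Its groups did not overlap.

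For most of these genes it was the PparA high-fat group that stood apart from the rest of the series. Rps4x averaged 8739 ± 792 CPM in PparDA high-fat cells and 26649 ± 3739 CPM in PparA high-fat cells (SD, n = 4 each), with every other group mean between 7232 and 13866 CPM. Rpl28 averaged 2352 ± 203 CPM in PparDA high-fat cells and 6731 ± 2157 CPM in PparA high-fat cells, against 1281 ± 208 CPM in PparA cells of the control diet. Trmt112, an activating partner of several RNA and protein methyltransferases, had 67.3, 85.9, 77.5 and 58.2 CPM in PparDA libraries, against 237, 177, 207 and 198 CPM in PparA libraries. It was 2.80-fold lower in PparDA with no overlap (log2 fold change -1.49 ± 0.15, edgeR adjusted p = 2e-07), and the other 6 group means lay between 65.2 and 71.8 CPM. Its annotated span overlaps Esrra and Prdx5, so its reads could be shared with them. Hint1, a purine phosphoramidase, had 417, 394, 364 and 390 CPM in PparDA libraries, against 579, 590, 699 and 716 CPM in PparA libraries (-0.72 ± 0.10, edgeR adjusted p = 1e-04). Again the other 6 groups, at 348 to 385 CPM, stood with PparDA.

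**Figure D4:**
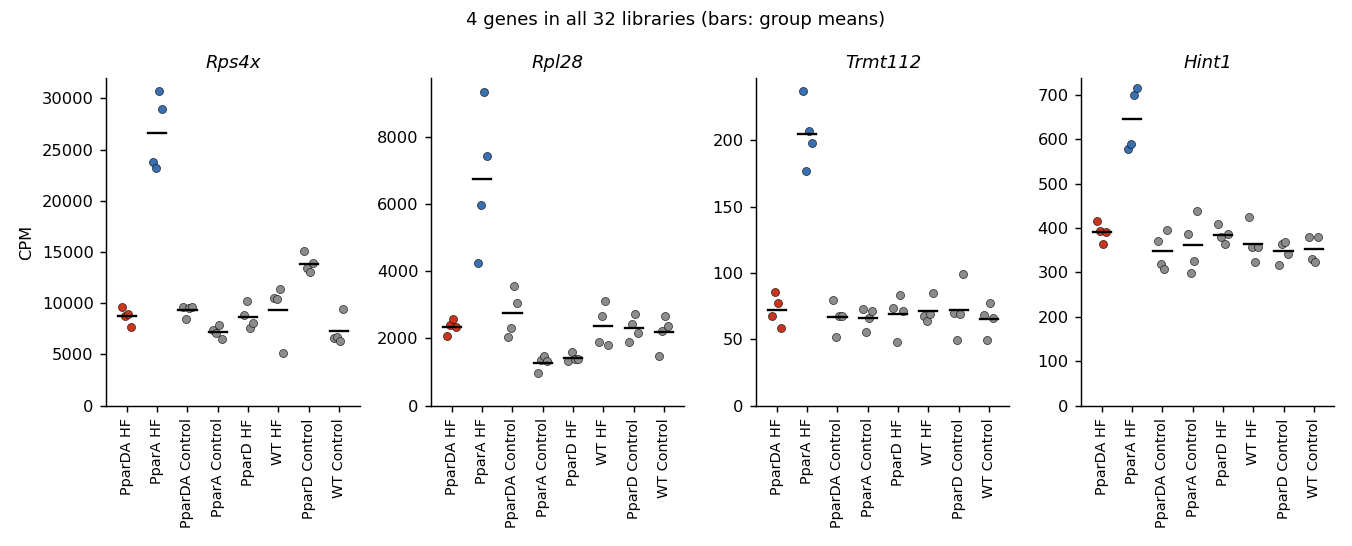
CPM of Rps4x, Rpl28, Trmt112 and Hint1 in all 32 libraries, 1 point per library in 8 groups of 4 with a line at the group mean, PparDA (red) and PparA (blue) on the high-fat diet first and the other groups in grey. All 4 genes are highest in PparA high-fat libraries, and Trmt112 averages 72.2 CPM in PparDA and 205 CPM in PparA libraries of that diet.

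Measurements that move with these genes were made as well. Group and place within the run go together in this series, except in wild-type libraries, where control and high-fat libraries held the first and the second place in runs 1 to 3 and the reverse in run 4. Place and diet are thus separated there by run 4 alone. In a fit with diet, run and place over the 8 wild-type libraries, edgeR called 12 of 5872 genes for place, 3 of which were also called here, Rps4x (log2 difference of the second over the first place 0.79 ± 0.06, edgeR adjusted p = 3.9e-05) and Rps15a (0.79 ± 0.09, 0.0018) among them. The part of place in the difference between PparDA and PparA was not tested. Ribosomal protein genes also share sequence with many processed pseudogenes, and the estimated counts divide shared reads between copies, so their single values are uncertain. Rps26-ps1 moved with its parent gene, with 1732, 1774, 1390 and 1289 CPM in PparDA libraries against 2429, 2553, 3121 and 2757 CPM in PparA libraries (-0.83 ± 0.12, edgeR adjusted p = 0.00015). Rpl28-ps1 had 1164 CPM in PparA library 6 and 0 in the other 7 libraries, and Rpl31-ps8 had 190.7 CPM in PparDA library 8 and 0 in the other 7. Of the 146 called genes, 25 were predicted genes or pseudogenes.

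Outside the ribosome, Fgf1 and Noc2l had the largest rises among the named genes. Fgf1, a fibroblast growth factor, had 134.6, 107.8, 167.4 and 186.8 CPM in PparDA libraries, against 4.363, 63.18, 4.819 and 102 CPM in PparA libraries. PparDA lay above PparA throughout (2.05 ± 0.50, edgeR adjusted p = 0.019), but PparA libraries 6 and 22 were near the wild-type and PparD range of 1.418 to 8.575 CPM, and the call did not stand without library 6, 8, 22 or 24. Txn1, thioredoxin, had 3772, 4761, 2007 and 2152 CPM in PparDA libraries, against 1571, 1366, 1094 and 931 CPM in PparA libraries (1.28 ± 0.29, edgeR adjusted p = 0.012). Its PparDA values were highest in runs 1 and 2, the groups did not overlap, and the call did not stand without library 8, 14 or 30. Coq6, an oxygenase of coenzyme Q synthesis, had 120, 178, 71.3 and 104 CPM in PparDA libraries, against 37.8, 48.6, 45 and 22.7 CPM in PparA libraries (1.58 ± 0.34, edgeR adjusted p = 0.010). The groups did not overlap, and the call did not stand without library 14 or 30. Hist1h1b, a linker histone made in dividing cells, had 138, 180, 122 and 130 CPM in PparDA libraries, against 91.6, 76.1, 61 and 30.8 CPM in PparA libraries (1.15 ± 0.22, edgeR adjusted p = 0.0036). All PparDA libraries lay above all PparA libraries.

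Several further rises were of like size. Noc2l, a nucleolar protein that inhibits histone acetylation, had 81.7, 78.1, 23.3 and 23 CPM in PparDA libraries, against 18.9, 19.4, 12.9 and 11.3 CPM in PparA libraries. PparDA values were much higher in runs 1 and 2 than in runs 3 and 4 (1.65 ± 0.41, edgeR adjusted p = 0.025), and the call did not stand without library 8, 14, 16 or 30. Cmip, an adaptor protein, had 91.3, 103, 80.6 and 91.9 CPM in PparDA libraries, against 33.5, 68, 28.9 and 30.8 CPM in PparA libraries (1.22 ± 0.22, edgeR adjusted p = 0.0027). Only PparA library 14 came near the PparDA range. Ly6e, a lipid-anchored surface protein, had 373, 692, 493 and 619 CPM in PparDA libraries, against 122, 373, 175 and 309 CPM in PparA libraries (1.18 ± 0.26, edgeR adjusted p = 0.010). Acy1, which frees amino acids from their acetylated forms, had 73.7, 57.8, 58.9 and 75 CPM in PparDA libraries, against 45.1, 32.4, 27.3 and 34 CPM in PparA libraries (0.93 ± 0.18, edgeR adjusted p = 0.0044). The Acy1 groups did not overlap. Ecd, a cell-cycle and splicing factor, and Chchd7, a small mitochondrial protein, rose by log2 fold changes of 1.12 ± 0.25 (edgeR adjusted p = 0.010) and 1.09 ± 0.24 (0.011), and the Ecd call did not stand without library 14 or 30.

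The 42 genes outside the ribosomal protein list that fell had a median of 103 CPM. Mettl6, a tRNA methyltransferase, had 17.6, 23.4, 31 and 27.6 CPM in PparDA libraries, against 49.5, 47, 56.2 and 50.2 CPM in PparA libraries (-1.02 ± 0.16, edgeR adjusted p = 0.00095). PparDA lay wholly below PparA. Hyal2, a hyaluronan-degrading enzyme, had 19.2, 15.6, 1.55 and 9.19 CPM in PparDA libraries, against 26.2, 32.4, 30.5 and 37.3 CPM in PparA libraries (-1.47 ± 0.36, edgeR adjusted p = 0.020). The PparDA value of run 3 was far below the rest, and the call did not stand without library 14, 24, 30 or 32. Aqp11, an aquaporin, had 6.41, 14.1, 10.9 and 15.3 CPM in PparDA libraries, against 27.6, 35.6, 30.5 and 21.1 CPM in PparA libraries (-1.29 ± 0.29, edgeR adjusted p = 0.011). Ccpg1, a receptor for autophagy of the endoplasmic reticulum, had 16, 12.5, 12.4 and 12.3 CPM in PparDA libraries, against 26.2, 32.4, 35.3 and 24.3 CPM in PparA libraries (-1.15 ± 0.29, edgeR adjusted p = 0.028). Neither gene's groups overlapped, but the Aqp11 call did not stand without library 8 or 14, and the Ccpg1 call stood only when library 6 was the one left out. Wapl, which releases cohesin from chromatin, fell by 1.20 ± 0.28 on the log2 scale (edgeR adjusted p = 0.017), and Fcho2, which starts clathrin-coated pits, fell by 1.02 ± 0.22 (0.010). The Wapl call did not stand without library 14, 16, 30 or 32, nor the Fcho2 call without library 8 or 22.

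Genes of fatty acid oxidation and PPAR targets, the genes closest to the receptors themselves, held 1 call by edgeR. Of 21 tested genes of mitochondrial fatty acid oxidation 0 rose and 1 fell, with 6 above 0 and a median log2 fold change of -0.17, against -0.01 for all genes, so 4.76% were called beside 2.49% of all genes. At an unadjusted p under 0.05 there were 4 genes, all lower, and DESeq2 called 1 lower. Over all genes, 829 of 5872 had an unadjusted p under 0.05. Counts at that threshold here and in later lists are to be read beside this share. Of 14 tested canonical PPAR targets, from a list of 27, the same 1 gene fell and 0 rose (7.14%), with a median of -0.14, with 3 lower at an unadjusted p under 0.05 and 2 lower by DESeq2. It was Acadvl, the very-long-chain acyl-CoA dehydrogenase that begins mitochondrial beta-oxidation, with 60.9, 53.1, 62 and 67.4 CPM in PparDA libraries, against 69.8, 89.1, 120 and 105 CPM in PparA libraries. The groups did not overlap and PparDA was 1.58-fold lower (log2 fold change -0.66 ± 0.16, edgeR adjusted p = 0.025). The call was lost when any of libraries 8, 14, 16, 22, 24, 30 and 32 was left out, with an adjusted p of up to 0.124. In the rest of the high-fat diet series Acadvl averaged 153 ± 28.6 CPM in PparD cells and 141 ± 31 CPM in wild-type cells, so the PparDA mean of 60.9 ± 5.88 CPM was the lowest of the 4 high-fat groups (SD, n = 4 each).

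The other PPAR targets described here gave no call by edgeR. Plin2, which coats lipid droplets, had 111, 102, 138 and 116 CPM in PparDA libraries, against 150, 134, 236 and 146 CPM in PparA libraries (-0.50 ± 0.15, edgeR adjusted p = 0.070; DESeq2 adjusted p = 0.0347), with only the PparDA library of run 3 reaching into the PparA range. Fabp1, a fatty acid binding protein of enterocytes, had 1095, 286, 887 and 828 CPM in PparDA libraries, against 215, 2069, 585 and 1265 CPM in PparA libraries. The side of the difference turned with the run (-0.17 ± 0.58, edgeR adjusted p = 0.95). Cpt1a, which admits long-chain fatty acids to mitochondria, averaged 34.3 ± 9.45 CPM in PparDA and 38.5 ± 14.8 CPM in PparA (SD, n = 4 each; -0.17 ± 0.34, edgeR adjusted p = 0.90). Angptl4, a lipoprotein lipase inhibitor, had 16, 18.8, 12.4 and 7.66 CPM in PparDA libraries, against 1.45, 6.48, 16.1 and 3.24 CPM in PparA libraries (1.0 ± 0.59, edgeR adjusted p = 0.49). Pdk4, which shuts off pyruvate dehydrogenase, was under the filter on low counts, with 0 counts in every PparDA library and 0 to 3 in PparA libraries.

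The remaining lipid lists held 0 calls by edgeR. Peroxisomal oxidation had 10 tested genes with a median of -0.07, with 0 at an unadjusted p under 0.05 and 0 by DESeq2. Ketone body metabolism had 6 with a median of -0.06, with 1 at an unadjusted p under 0.05 and 0 by DESeq2. Lipid uptake and lipoprotein assembly had 13 with a median of -0.17, with 1 at an unadjusted p under 0.05 and 0 by DESeq2. Its median ratio within a run was 1.06, -2.83, 0.82 and -0.58 in runs 1 to 4, and in the test of the difference between pairs of runs described below 6 of the 13 were called and all 13 had opposite signs. Cholesterol synthesis had 12 of 15 tested genes above 0 and a median of 0.32, but its median ratio within a run was -0.24, 0.52, -0.04 and 0.62 in runs 1 to 4, and 0 passed an unadjusted p under 0.05 or DESeq2.

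Genes of mitochondrial energy production rose in a few cases by small amounts. Of 55 tested nuclear-encoded genes of oxidative phosphorylation 3 rose and 0 fell, with 41 above 0 and a median of 0.11, so 5.45% were called beside 2.49% of all genes. At an unadjusted p under 0.05, 16 were higher and 1 lower (829 of all 5872 genes passed this threshold), and DESeq2 called 7 higher. Atp5j2, an ATP synthase subunit, had 1780, 1949, 1806 and 1727 CPM in PparDA libraries, against 1508, 1445, 1367 and 1270 CPM in PparA libraries (0.38 ± 0.08, edgeR adjusted p = 0.011). The groups did not overlap, and the call did not stand without library 14 or 30. Cox8a, of cytochrome oxidase, and Atp5c1, of ATP synthase, rose by 0.86 ± 0.23 (edgeR adjusted p = 0.032) and 0.28 ± 0.08 (0.045). The Cox8a call did not stand without library 8, 14, 16, 24 or 30, and the Atp5c1 call stood only when library 6 was the one left out. Of the 13 transcripts of the mitochondrial genome 3 rose and 1 fell (30.8%, beside 2.49% of all genes). The list median was 0.07, with 8 above 0 and 5 below. Their summed signal was 127210, 130220, 157870 and 141780 CPM in PparDA libraries, against 132830, 144170, 149680 and 150580 CPM in PparA libraries. PparDA was lower for this sum in runs 1, 2 and 4 and higher in run 3. The mt-Nd3 call was lost whichever library of the comparison was left out, and the mt-Nd4 call without library 24 or 30. mt-Nd1, of complex I, had 11654, 14727, 14622 and 15108 CPM in PparDA libraries, against 9896, 11538, 11390 and 10047 CPM in PparA libraries (0.38 ± 0.07, edgeR adjusted p = 0.0046). PparDA exceeded PparA throughout, though PparDA library 8 came close to the PparA range. mt-Atp8, an ATP synthase subunit that overlaps mt-Atp6, had 207, 123, 144 and 132 CPM in PparDA libraries, against 429, 238, 186 and 220 CPM in PparA libraries (-0.79 ± 0.14, edgeR adjusted p = 0.0027), and its groups overlapped. Among 74 mitochondrial ribosomal protein genes Mrpl4 rose (0.49 ± 0.11, edgeR adjusted p = 0.031) and Mrpl45 fell (-0.43 ± 0.09, 0.0084), with a list median of 0.04. The share called, 2.7%, was near the 2.49% of all genes, and the Mrpl4 call also stood only without library 6. None of 21 tricarboxylic acid cycle genes was called by edgeR or DESeq2, with 5 at an unadjusted p under 0.05.

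Of 11 glycolysis genes 1 rose (9.09%, beside 2.49% of all genes), 8 were above 0 and the median was 0.30. At an unadjusted p under 0.05, 6 were higher (829 of all 5872 genes passed this threshold), and DESeq2 called 2 higher. Gapdh had 729, 673, 587 and 672 CPM in PparDA libraries, against 297, 611, 262 and 458 CPM in PparA libraries (0.78 ± 0.17, edgeR adjusted p = 0.010). PparA library 14 lay within the PparDA range, PparA libraries 6 and 22 were lowest, and the call was lost without library 8. The heat-shock chaperone Hsp90aa1 had 553, 602, 406 and 459 CPM in PparDA libraries, against 359, 235, 231 and 225 CPM in PparA libraries. Its groups did not overlap (0.91 ± 0.24, edgeR adjusted p = 0.031), and the call was lost without any of libraries 8, 14, 16, 22, 24 and 30.

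The sorted cells carried the markers of stem cells in both groups. Olfm4, a secreted glycoprotein of crypt-base stem cells, had 9870, 11049, 9088 and 9758 CPM in PparDA libraries, against 9202, 9068, 9665 and 10476 CPM in PparA libraries (0.05 ± 0.10, edgeR adjusted p = 0.91). Lgr5, the receptor for R-spondins that defines these cells, had 43.3, 29.7, 41.9 and 42.9 CPM in PparDA libraries, against 36.4, 35.6, 57.8 and 55.1 CPM in PparA libraries (-0.22 ± 0.23, edgeR adjusted p = 0.77). Both genes overlapped between the groups. Of 18 tested stem cell markers 0 were called by edgeR or DESeq2, 2 had an unadjusted p under 0.05 and the median was -0.12. Of 26 proliferation genes 0 were called by edgeR, 3 had an unadjusted p under 0.05, all higher, and DESeq2 called 2 higher, with a median of 0.14.

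Class II antigen presentation genes, which stem cells can express, gave 0 calls by edgeR or DESeq2 among 6 tested, with 1 at an unadjusted p under 0.05. All 6 were below 0, with a median of -1.01, but the summed signal was 205, 273, 62.0 and 383 CPM in PparDA libraries, against 733, 468, 594 and 196 CPM in PparA libraries. PparDA was lower in runs 1 to 3 and higher in run 4. Of 13 class I and immunoproteasome genes 0 were called by edgeR or DESeq2, 2 were higher and 3 lower at an unadjusted p under 0.05, and the median was -0.44. The median ratio within a run was -0.01, -0.28, -0.25 and 0.13 in runs 1 to 4. H2-Eb1, a class II beta chain, had 14.4, 10.9, 4.65 and 15.3 CPM in PparDA libraries, against 90.2, 51.8, 65.9 and 22.7 CPM in PparA libraries (-2.30 ± 0.69, edgeR adjusted p = 0.070), without overlap.

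Markers of other epithelial cells were present in every library, and the Paneth and enterocyte sums varied more among PparA than among PparDA libraries. In bulk samples fewer cells of a type and less RNA per cell cannot be told apart. Summed Paneth cell markers gave 15139, 18202, 11021 and 21192 CPM in PparDA libraries, against 8625, 36551, 6497 and 40761 CPM in PparA libraries. Summed enterocyte markers gave 6776, 4613, 6290 and 5801 CPM in PparDA libraries, against 3620, 10226, 3709 and 6900 CPM in PparA libraries. PparA libraries 6 and 22 were the lowest and PparA library 14 among the highest on both sums, while PparDA libraries lay between them. Goblet cell markers summed to 3841 to 8457 CPM in PparDA and 4219 to 6547 CPM in PparA, enteroendocrine markers to 178 to 519 CPM in PparDA and 245 to 326 CPM in PparA, and tuft cell markers to 365 to 500 CPM in PparDA and 369 to 507 CPM in PparA. None of these 5 lists held a call by edgeR or DESeq2 or a gene at an unadjusted p under 0.05. Leukocyte markers summed to 5 to 9 counts in PparDA libraries and 1 to 15 counts in PparA libraries, and red blood cell markers to 0 in PparDA libraries and 0 to 1 in PparA libraries. The part of these cell types in the differences above was not tested, beyond the counts without libraries 6 and 22 and without libraries 14 and 30.

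For enterocyte genes the sign of the difference turned with the pair of runs. A test of that turn was added after the data were seen, comparing PparDA with PparA in runs 1 and 3 and in runs 2 and 4 and testing the difference of both in 1 fit over all 32 libraries. It called 76 of 5872 genes (1.29%), 63 of them more positive in runs 1 and 3 and 13 less, and 1 of these, Fgf1, was among the 146. Of 16 tested enterocyte markers 8 were called and all 16 had opposite signs in the pairs, with medians of 1.64 in runs 1 and 3 and -1.12 in runs 2 and 4. Leaving out 1 library gave 3 to 12 called enterocyte markers. The enterocyte medians within single runs were 2.07, -2.07, 1.29 and -0.44 in runs 1 to 4. Ribosomal protein genes had medians of 0.35 in runs 1 and 3 and 0.39 in runs 2 and 4, and 4 of the 81 had opposite signs.

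The genes given here were chosen after their values were seen. Apoa4, an apolipoprotein of chylomicrons made by enterocytes, had 183, 42.2, 82.2 and 124 CPM in PparDA libraries, against 13.1, 446, 1.61 and 292 CPM in PparA libraries. PparDA was higher in runs 1 and 3 by a log2 difference of 4.09 and lower in runs 2 and 4, at -2.08 (difference 6.17 ± 1.08, edgeR adjusted p = 0.0035). Sis, the brush-border sucrase-isomaltase, had 107, 39.1, 65.1 and 73.5 CPM in PparDA libraries, against 7.27, 94, 3.21 and 90.7 CPM in PparA libraries (difference 4.64, edgeR adjusted p = 0.0035). Alpi, intestinal alkaline phosphatase, had 43.3, 10.9, 23.3 and 29.1 CPM in PparDA libraries, against 2.91, 160, 1.61 and 79.4 CPM in PparA libraries (difference 6.27, edgeR adjusted p = 0.0070). For each of these genes PparA libraries 6 and 22 were lowest and 14 and 30 at or near the top, and the Alpi call was lost without library 6 or 8. Apob, the structural protein of chylomicrons, had 49.7, 21.9, 32.6 and 35.2 CPM in PparDA libraries, against 10.2, 105, 4.82 and 64.8 CPM in PparA libraries (difference 3.95, edgeR adjusted p = 0.0035). PparDA levels of Apob differed less between runs than PparA levels. Without PparA libraries 6 and 22 the enterocyte median was -0.72, and without libraries 14 and 30 it was 1.24.

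**Figure D5:**
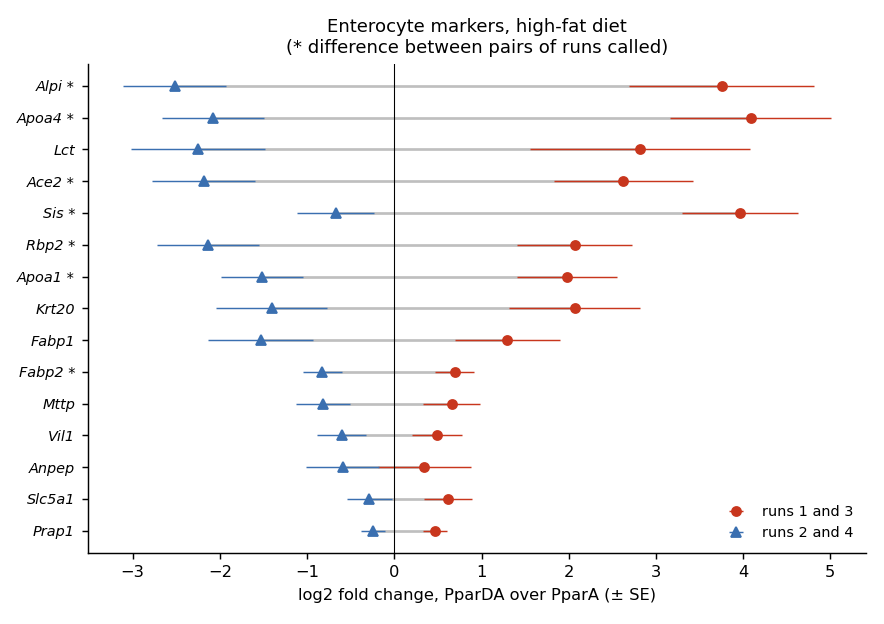
Log2 fold change of PparDA over PparA on the high-fat diet with its SE (horizontal axis) for 15 of the 16 tested enterocyte markers, in runs 1 and 3 (red circles) and in runs 2 and 4 (blue triangles), with a star where the difference between the pairs of runs was called. Every marker drawn lies above 0 in runs 1 and 3 and below 0 in runs 2 and 4, and 7 carry a star.

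In the main fit, genes linked to the floxed Ppard locus on chromosome 17 were called at about the rate of all genes. Other settings, given in the closing section on processing, gave more such calls in some cases and fewer in others. Of 143 tested genes within 10 Mb of Ppard, 3 were called (2.1%, against 2.49% of all), each higher in PparDA, and 1 without library 30. Csnk2b, the regulatory subunit of casein kinase 2, had 147, 156, 126 and 127 CPM in PparDA libraries, against 91.6, 85.9, 73.9 and 81 CPM in PparA libraries (0.74 ± 0.16, edgeR adjusted p = 0.0090). Its groups did not overlap. The others were Rps2, described above, and Rpl10a, of the large subunit, with 1893, 1934, 1621 and 1372 CPM in PparDA libraries against 1225, 1230, 1202 and 1056 CPM in PparA libraries (0.53 ± 0.12, edgeR adjusted p = 0.017). The Rpl10a call was lost without library 8, 14, 24 or 30.

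The other libraries of the series allow the same allele contrast on the control diet and with Ppara present. On the control diet PparDA against PparA gave 11 calls of 5872 (0.187%), 7 higher and 4 lower (0.0681%). PparD against wild type gave 10 calls on the high-fat diet (0.17%), all lower, and 22 on the control diet (0.375%), 16 higher (0.272%) and 6 lower. The difference of PparDA over PparA between the high-fat and control diets was called for 20 genes (0.341%), 13 of which were among the 146. Leaving out library 7, 8, 14, 16, 21, 24, 29, 30, 31 or 32 gave 4 to 13 such genes. Among the genes described here that are not pseudogenes, Rpl28 differed most, with a fall by 1.47 on the high-fat diet against a log2 fold change of 1.09 on the control diet (difference -2.56 ± 0.19, edgeR adjusted p = 2.5e-10). Rps4x differed between diets by -1.98 (edgeR adjusted p = 4.6e-06), Trmt112 by -1.49 (0.00042), Mettl6 by -1.25 (0.021) and Hint1 by -0.67 (0.036). Among risers Rps20 differed by 0.84 (edgeR adjusted p = 0.046), Rpl21 by 0.70 (0.036), Atp5j2 by 0.52 (0.046) and mt-Nd1 by 0.48 (0.036). Rps26 did not pass this test (-0.01, edgeR adjusted p = 0.99), since it was lower in PparDA on the control diet too, at -0.74.

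The difference on the high-fat diet between PparDA over PparA and PparD over wild type was called for 5 genes (0.0851%), all lower and all among the 146, and for 9, 8 and 12 genes without library 6, 16 and 25. Rps4x had -1.51 (edgeR adjusted p = 0.0013), Trmt112 -1.43 (0.0013), Rps26 -0.82 (0.0088), Hint1 -0.80 (0.0088) and the pseudogene Rps26-ps1 -0.87 (0.023). Of the 100 genes higher in PparDA than PparA on the high-fat diet, 40 had the same sign in PparDA against PparA on the control diet, 87 in PparD against wild type on the high-fat diet and 92 in PparD against wild type on the control diet. Of the 46 lower genes, 31, 30 and 28 had the same sign in these 3 comparisons. Over all 5872 tested genes, 48.5%, 50.8% and 50.7% were above 0 in them. Ribosomal protein genes were 36 of the 100 higher genes, and 28, 68 and 76 of the 81 tested were above 0 there. The counts for the higher genes thus in part repeat that list. The ribosomal protein list had a median of -0.03 in PparDA against PparA on the control diet, 0.11 in PparD against wild type on the high-fat diet and 0.21 in PparD against wild type on the control diet, beside 0.40 here. PparDA high-fat cells had the highest mean of all 8 groups for 32 of the 36 ribosomal protein genes that rose, and PparA high-fat cells the lowest for 18. Over all 100 genes that rose these counts were 74 and 57, and since the genes were chosen for this contrast the ranks are a description only.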

How the data were processed

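Polyadenylated RNA of 32 sorted-cell libraries was sequenced by a 3′-end method (3'DGE). Per the submitters' processing notes the tools were Salmon 1.1.0, edgeR 3.30.2 and R 4.0.2 with build mm10. The authors deposited expected counts per gene from Salmon, used here rounded to whole numbers, and a table of log2(CPM + 1) values, which sum to 1e+06 CPM per library once reversed and served only as a check. Use of molecular identifiers is not stated. Columns name the group and a library number, so a library is a replicate of its group only.

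Gene names came from GENCODE (54166 of 54418 IDs matched, 252 not). Genes were filtered with filterByExpr (minimum count 10, total 15), scaled by TMM and tested with edgeR 4.0.16 (R 4.3.3), by quasi-likelihood over all 32 libraries with terms for group and run and 21 residual degrees of freedom. p-values were Benjamini-Hochberg adjusted over 5872 genes, SE is the size of the log2 fold change over the root of F, and CPM uses full library totals. The biological coefficient of variation was 16.8%. Named genes are the 12 largest rises and falls averaging 10 CPM or more with 1 direction in all 4 runs, fixed PPAR and stem cell genes, called and smallest-p list members, called genes within 10 Mb of Ppard and the smallest p of the difference tests; others are said to be chosen after their values were seen. The members and gene lists were chosen with earlier results of these data known. DESeq2 1.42.0, other scalings, filters, run terms and left-out libraries were tried. No pair of libraries of a group agreed within sampling noise (chi-square per degree of freedom 2.69 to 9.07). Results for some genes are not reported here.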

Additional observations from a re-analysis of the deposited data

Results flagged for a closer look

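In groups of 4 libraries 1 value can lie far from the other 3, and chance alone picks out about 1 in 20 groups by the measure used here (Dixon's ratio of gap to range). Among PparDA libraries this held for Rpl21 in library 16 (2330 CPM), Ccpg1 in library 8 (16 CPM), Lgr5 in library 16 (29.7 CPM), mt-Nd1 in library 8 (11654 CPM) and Rep15, a Rab15 effector, in library 24 (1195 CPM). Among PparA libraries it held for Rpl10a in library 30 (1056 CPM), Rps26 in library 22 (2774 CPM), Eif3h in library 14 (191 CPM), Cmip in library 14 (68.0 CPM), Hsp90aa1 in library 6 (359 CPM) and Plin2 in library 22 (236 CPM).

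The log2 fold change of PparDA over PparA differed between the high-fat and control diets by -2.56 for Rpl28, -1.98 for Rps4x, -1.49 for Trmt112, -1.25 for Mettl6, -0.67 for Hint1, 0.84 for Rps20, 0.70 for Rpl21, 0.52 for Atp5j2 and 0.48 for mt-Nd1. On the high-fat diet it differed from that of PparD over wild type by -1.51 for Rps4x, -1.43 for Trmt112, -0.82 for Rps26 and -0.80 for Hint1. Each passed edgeR's test of the difference itself.

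The difference of PparDA over PparA between runs 1 and 3 and runs 2 and 4 was 6.27 for Alpi, 6.17 for Apoa4, 4.64 for Sis and 3.95 for Apob, genes of absorptive enterocytes. It was 4.81 for Reg1, a secreted lectin, with 357, 223, 338 and 93.4 CPM in PparDA libraries against 48, 906, 45 and 314 CPM in PparA libraries. It was 4.16 for Fgf1, 4.31 for Rep15, 3.70 for Itch and 2.85 for Ccdc62. Rep15 had 911.9, 884.4, 1195 and 875.9 CPM in PparDA libraries, against 66.91, 939.7, 72.29 and 1343 CPM in PparA libraries. Ccdc62 had 1934, 1981, 2596 and 2095 CPM in PparDA libraries, against 353.4, 2360, 451.4 and 2865 CPM in PparA libraries. For these last genes PparA libraries 6 and 22 lay near the wild-type and PparD libraries, which had 55.14 to 107.8 CPM of Rep15 and 352.3 to 598.8 CPM of Ccdc62. The same pattern was present on the control diet, where PparA libraries 5 and 21 had 77.21 and 60.98 CPM of Itch and PparA libraries 13 and 29 had 675 and 298.2 CPM.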

How the results depend on the processing

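Calls of PparDA over PparA on the high-fat diet are given as all, higher, lower, ribosomal protein genes higher and genes near Ppard, and were 146, 100, 46, 36 and 3. All calls numbered 150 with upper-quartile factors, 144 with DESeq2's size factors, 181 with the DESeq2 test, 188 with a stricter filter, 167 with a robust prior and 152 in runs 1 and 3. Without the run (the replicate block) they were 16, 6, 10, 1 and 0 (17 near Ppard at an unadjusted p under 0.05). In the 8 libraries alone they were 37, 28, 9, 10 and 0 (12). In runs 2 and 4 they were 21, 8, 13, 0 (45) and 0 (17), and in runs 1 and 3 ribosomal protein and near-Ppard calls were 23 and 8. With no filter all, higher, lower and near-Ppard calls were 245, 158, 87 and 10, and DESeq2 called 6 near Ppard. Leaving out 1 library gave 58 to 141, 34 to 100, 22 to 41, 10 to 40 and 1 to 4. Leaving out PparA libraries 14 and 30 together gave 54 and 25 higher.

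The diet difference (20) gave 97 with DESeq2, 137 with no filter, 8 without the block, 44 with a robust prior, 6 in its own libraries, 6 in runs 1 and 3, 9 in runs 2 and 4, and 4 to 27 leaving out 1 library. The difference from PparD over wild type (5) gave 13, 109, 3 and 12 under the first 4 of these, 39 in runs 1 and 3, 0 in runs 2 and 4 (429 at an unadjusted p under 0.05) and 4 to 12. PparDA over PparA on the control diet (11) gave 128 with no filter, 54 in runs 1 and 3, 3 in runs 2 and 4 and 8 to 13. PparD over wild type on the high-fat diet (10) gave 5 with DESeq2, 90 with no filter, 1 without the block, 0 in runs 2 and 4 (239) and 2 to 8 (2 to 5 without library 2, 4, 10, 12, 18, 20 or 28). On the control diet (22) it gave 41, 112, 12, 35 in runs 1 and 3, 5 in runs 2 and 4 and 8 to 44 (8 to 14 without library 1, 3, 9, 11, 17 or 19, 44 without 26 and 38 without 27). The difference between pairs of runs (76) gave 30 with DESeq2 and 28 to 69 (28, 32, 39 and 43 without libraries 6, 8, 14 and 16). In runs 1 and 3 the log2 fold changes of Apoa4, Alpi and Apob were called at 4.08, 3.75 and 2.40, against values below 0 over all runs. The cause was not tested.

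Run numbers are not stated to pair animals. Deviations from the group means correlated at 0.167, -0.0346, 0.0949 and 0.0364 within runs, and 31 of 32 libraries correlated best with their own run. Ppara, Ppard and Pdk4 were under the filter on low counts and could not be compared at this depth.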
